A study of Mus musculus with 9 samples.

Results

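The genes described here write, copy and remove DNA methylation. They were the rows of the deposited expression table whose symbols were Dnmt1, Dnmt3a, Dnmt3b, Uhrf1, Tet1, Tet2, Tet3, Idh1 or Idh2, and all 9 were found among its 55536 genes. The rows were taken by symbol, with no cut on a measured value. Earlier results of these data were known when the genes were chosen. RNA was measured in 9 libraries of mouse acute myeloid leukemia (AML) cells, 3 in each of 3 groups. In every group the leukemia had been started with an MLL-AF9 retrovirus that carries GFP, and the AML cells were then infected with a second retrovirus that carries BFP. The groups MA9-c-Kit- and MA9-c-Kit+ came from mice given AML cells with the blank BFP virus, and MA9-IL-34 cells came from mice given AML cells whose virus also encoded IL-34, a ligand of the CSF-1 receptor. Recipients were C57BL/6J mice of 6 to 8 weeks that had received 100000 GFP+BFP+ cells each, with no irradiation, and leukemia cells were sorted from bone marrow at day 18. By the labels the cells of the MA9-c-Kit+ group are c-kit+, as are those of the MA9-IL-34 group, and the remaining group is c-kit-. The paper names no c-Kit gate for the sorted MA9-IL-34 cells and reports that most such cells were c-Kit+. Both groups are called c-Kit+ groups below, after the labels. c-Kit is the stem cell factor receptor.

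Nothing in the sources says whether the 3 libraries within a group stand for 3 mice. The p-values below therefore measure the spread between these libraries, which may be technical. The groups are given throughout in the order MA9-c-Kit-, then MA9-c-Kit+, then MA9-IL-34, which is the order of any 3 values set side by side. They also do not say how many infected cell populations stood behind the IL-34 group, so IL-34 and the infected population cannot be told apart. Kit was at 1.63 to 2.90 TPM (reads per length of transcript, scaled to the library) in MA9-c-Kit- cells, 70.6 to 135 TPM in MA9-c-Kit+ cells and 90.5 to 112 TPM in MA9-IL-34 cells. The mouse Il34 row was at 0 wherever the blank virus had been used (6 libraries) and at 0.10 to 0.14 TPM with the IL-34 virus. The paper verified IL-34 expression by qRT-PCR, Western blot and ELISA, and lists its qRT-PCR primers as hIL-34. The species of the IL-34 in the virus is not stated in the sources used here. Mitochondrially encoded genes took 5.10% of the TPM in MA9-c-Kit+ replicate 2 and 8.79% to 11.1% in the other libraries. In MA9-c-Kit- replicate 3, erythroid markers summed to 1511 TPM (5 of 5 markers, with Hbb-bs at 1031 TPM). The lowest sum in that group was 10.1 TPM, and the sums were 4.18 to 23.1 TPM in MA9-c-Kit+ and 1.31 to 2.20 TPM in MA9-IL-34 libraries. The 4 T and NK cell markers were under 1 TPM in every library. Among the 6 leukemic myeloid markers, Mpo was at 1639 TPM in MA9-c-Kit+ replicate 3, against 6711 and 8177 TPM in replicates 1 and 2. Within that group Kit, Ptprc and Itgam were also lowest in replicate 3, and Hoxa9 and Meis1 were highest there. Macrophage markers summed to 49.1 to 88.0 TPM in MA9-c-Kit-, 15.5 to 51.9 TPM in MA9-c-Kit+ and 106 to 124 TPM in MA9-IL-34 libraries, of which Vcam1 made 55.8 to 70.4 TPM in the last group. The part of these markers in the results below was not tested, apart from the values given without single libraries. In RNA of a sorted population, fewer cells of a type and less RNA per cell cannot be told apart.

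In mammals, cytosine in CpG pairs is methylated at the 5 position. Dnmt3a and Dnmt3b set new marks, whereas Dnmt1 copies them onto the daughter strand after replication, led there by Uhrf1, which binds CpG pairs that carry the mark on only the parental strand. The TET enzymes oxidise the mark and so open the way to its removal. They need 2-oxoglutarate, which the isocitrate dehydrogenases Idh1 (cytosol) and Idh2 (mitochondria) produce. Mutations of DNMT3A, TET2, IDH1 and IDH2 recur in human AML, and mutant IDH enzymes make 2-hydroxyglutarate, an inhibitor of TET enzymes. The table holds RNA levels, and neither methylation nor enzyme activity was measured in the data used here.

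The promoter letters are shown because copying of the mark is tied to S phase, and E2F factors drive many S phase genes. RefSeq windows of 300 bases (250 before and 50 after a start, build GRCm38.p6) were found for 9 of 9 genes, 15 windows in all. They were searched on both strands for TTTGGCGC, TTTGCCGC, TTTCGCGC and TTTCCCGC, spellings of the E2F motif. Of the 9 genes, 2 held a match, Dnmt1 and Uhrf1, beside 2.60% of the 27025 genes with a window. Dnmt1 had 2 matches in the window of its most downstream start, the first at -219 and the second at 34 bases from that start, and Uhrf1 had 1 match at -185 in the window of its downstream start. The matches, in capitals, read as follows on the gene's strand (chr9:20952824-20952853 and chr9:20952574-20952603, minus strand, for Dnmt1, both within annotated exons; chr17:56304117-56304146, plus strand, for Uhrf1, outside any annotated exon).
Dnmt1, first match: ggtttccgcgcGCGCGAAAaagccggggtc
Dnmt1, second match: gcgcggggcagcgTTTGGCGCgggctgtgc
Uhrf1: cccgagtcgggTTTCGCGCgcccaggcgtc
A match is a description of the letters only.

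CpG pairs, the substrate of these enzymes, were unevenly spread over the same windows. The Tet2 window held 57, at the 99.9th percentile of all 32851 windows, whose median was 7, and the most upstream of the 3 Dnmt1 windows held 2. The other Dnmt1 windows held 12 and 33, the Uhrf1 windows 12 and 33, and the Dnmt3a windows 46, 47 and 18. The remaining windows held 17 (Tet1) to 30 (Dnmt3b). The 250 bases before each of the 2 extreme starts show this, with CpG in capitals (chr3:133544391-133544640 for Tet2 and chr9:20959889-20960138 for Dnmt1, both on the minus strand and outside annotated exons).
Tet2: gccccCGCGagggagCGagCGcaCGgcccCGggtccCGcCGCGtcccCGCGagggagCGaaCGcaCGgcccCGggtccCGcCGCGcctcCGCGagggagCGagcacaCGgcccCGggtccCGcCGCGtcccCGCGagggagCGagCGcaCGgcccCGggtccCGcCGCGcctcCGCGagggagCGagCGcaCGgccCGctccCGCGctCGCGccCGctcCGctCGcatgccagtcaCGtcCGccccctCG
Dnmt1, upstream start: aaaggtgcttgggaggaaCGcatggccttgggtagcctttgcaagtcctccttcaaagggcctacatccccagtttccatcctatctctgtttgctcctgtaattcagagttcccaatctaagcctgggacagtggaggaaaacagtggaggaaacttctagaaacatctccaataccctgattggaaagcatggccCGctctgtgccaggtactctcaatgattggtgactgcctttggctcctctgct
Which start the libraries used cannot be read from a table of values per gene.

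Of the 9 genes, 8 had at least 1 TPM in at least 3 libraries and were tested with limma on log2(TPM + 1), with p-values adjusted by the Benjamini-Hochberg method over all 13722 genes tested. Tet1 did not pass this filter. A gene was called at an adjusted p under 0.05, and called differentially expressed when its fold change was also at least 2. Fold changes on this scale understate the change of low genes. The 3 comparisons share libraries, so their results are not independent. Where groups are said below not to overlap, the share of all tested genes that did so was not counted.

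Against MA9-c-Kit- cells, MA9-c-Kit+ cells had more RNA for the methyltransferases, Uhrf1 and Idh2 and less for Tet2. Dnmt1, Dnmt3a, Dnmt3b, Uhrf1 and Idh2, 5 of the 8, were called higher and 1 was called lower, where 19.3% and 19.0% of all tested genes were called higher and lower. With the replicate number as a block, Tet2 was no longer called. Its adjusted p (limma) was 0.0515 over all 9 libraries and 0.0721 with only these 2 groups. In both of these fits 5 of the 8 were called. At the minimum fold, Uhrf1 and Idh2 were differentially expressed, both higher, and none was lower, beside 5.66% and 9.15% of all tested genes. The median log2 fold change of the 8 genes was 0.90, and that of all tested genes was 0.03. Without MA9-c-Kit- replicate 3, the library with the erythroid RNA, 4 genes were called and 3 were differentially expressed, and without MA9-c-Kit+ replicate 2, the library with the low mitochondrial share, 5 were called and 4 were differentially expressed.

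The comparison of MA9-IL-34 with MA9-c-Kit- gave the same counts at the adjusted p. Again 5 of 8 were called higher and 1 lower, where 26.6% and 23.4% of all tested genes were called. Dnmt1, Dnmt3a, Uhrf1 and Idh2 were differentially expressed, all 4 higher, beside 11.3% of tested genes, and none was lower, beside 12.7%. The median was 0.97, and 0.06 over all tested genes. Without MA9-c-Kit- replicate 3 the counts were 6 called and 4 differentially expressed, as with it.

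Between the 2 c-Kit+ groups fewer genes were called. Idh2 alone was called, higher in MA9-IL-34 cells, and none was called lower, where 7.43% and 5.49% of all tested genes were called. None of the 8 was differentially expressed by limma, beside 3.86% higher and 3.38% lower over all tested genes. The median was 0.32, and 0.01 over all tested genes.

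**Figure D1:**
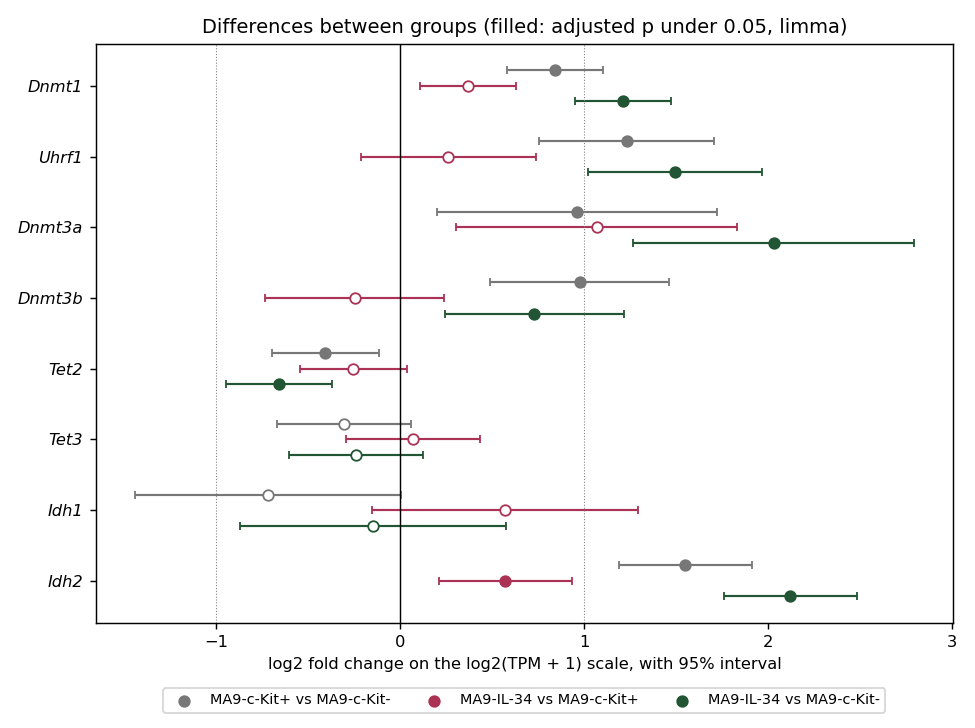
Log2 fold change of the 8 tested genes on the log2(TPM + 1) scale with its 95% interval, in 3 comparisons by colour. Filled points passed an adjusted p under 0.05 and dotted lines mark a fold of 2. Against MA9-c-Kit- cells the methyltransferases, Uhrf1 and Idh2 lie to the right of 0 and Tet2 to the left, and between the c-Kit+ groups Idh2 alone is filled.

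Dnmt1, the maintenance methyltransferase (ENSMUSG00000004099, chromosome 9 of GRCm38 from 20907209 to 20959888), was the highest of the 3 methyltransferases. It was at 74.0, 92.3 and 81.6 TPM in MA9-c-Kit- replicates 1 to 3, at 136, 164 and 146 TPM in MA9-c-Kit+ and 200.4, 177 and 199 TPM in the MA9-IL-34 replicates. The 3 groups did not overlap. MA9-c-Kit+ cells were 1.79-fold above MA9-c-Kit- cells (log2 fold change 0.84, SE 0.12, adjusted p = 0.000768, limma) and MA9-IL-34 cells 2.31-fold (1.21, SE 0.12, adjusted p = 4.67e-05). MA9-IL-34 against MA9-c-Kit+ cells gave 0.37 (SE 0.12, 95% interval 0.11 to 0.63, adjusted p = 0.0715, limma), which did not pass. Without MA9-c-Kit+ replicate 2, the highest of its group, it was 0.44 with an adjusted p of 0.0377.

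Uhrf1, which leads Dnmt1 to replicated DNA (ENSMUSG00000001228, chromosome 17 from 56303321 to 56323486), had the same order of groups. It was at 33.8, 64.7 and 57.5 TPM in MA9-c-Kit- replicates, at 115, 125 and 118 TPM in MA9-c-Kit+ and 158, 131 and 142 TPM in the MA9-IL-34 replicates. The libraries of each group lay apart from those of the others, with MA9-IL-34 replicate 2 close above the highest MA9-c-Kit+ library. The log2 fold change was 1.23 for MA9-c-Kit+ (SE 0.21, adjusted p = 0.00221, limma) and 1.49 for MA9-IL-34 cells (SE 0.21, adjusted p = 0.000439), both against MA9-c-Kit- cells. The c-Kit+ groups differed by 0.26 (SE 0.21, 95% interval -0.21 to 0.74, adjusted p = 0.496, limma). The ratio of Uhrf1 to Dnmt1 TPM had means of 0.621, 0.804 and 0.747 in the 3 groups.

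**Figure D2:**
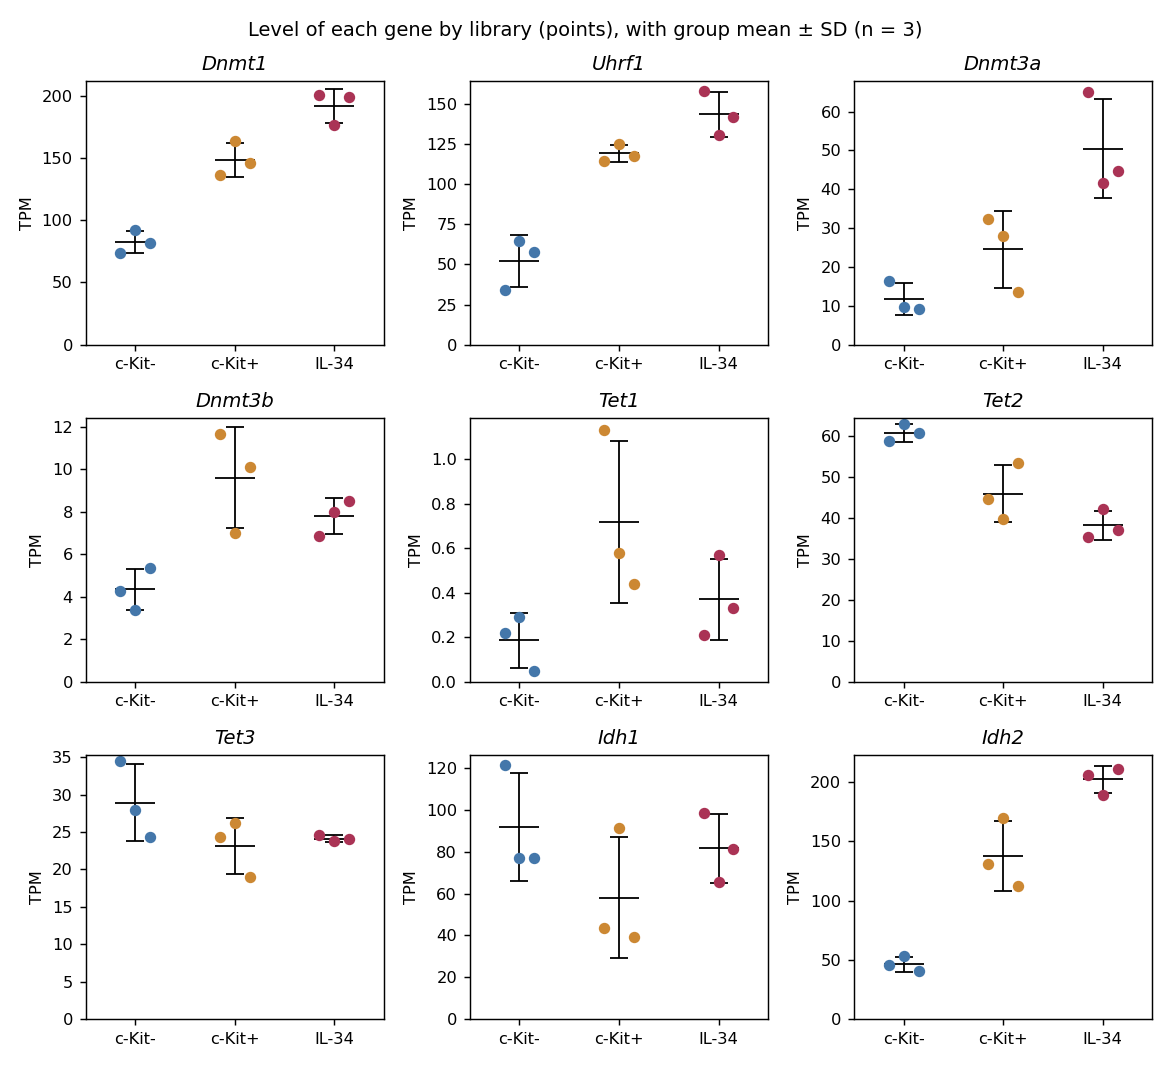
TPM of each of the 9 genes in every library (points), with the group mean and SD (n = 3), on axes that start at 0. Dnmt1, Uhrf1 and Idh2 step up from MA9-c-Kit- to MA9-c-Kit+ to MA9-IL-34 with no overlap. Between the c-Kit+ groups only the step of Idh2 was called. The mean of Tet2 steps down, with overlap of the c-Kit+ groups, and Tet1 stays at or under 1.13 TPM.

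Dnmt3a, a de novo methyltransferase (ENSMUSG00000020661, chromosome 12 from 3806007 to 3914443), spread widely within groups. It was at 16.4, 9.69 and 9.11 TPM in MA9-c-Kit- replicates, at 32.2, 27.9 and 13.5 TPM in MA9-c-Kit+ and 65.0, 41.5 and 44.7 TPM in the MA9-IL-34 replicates. MA9-IL-34 libraries lay above all others, while MA9-c-Kit+ replicate 3 lay below MA9-c-Kit- replicate 1. MA9-IL-34 cells were 4.09-fold above MA9-c-Kit- cells (log2 fold change 2.03, SE 0.34, adjusted p = 0.00111, limma). The difference from MA9-c-Kit+ cells was 1.07 on the log2 scale (SE 0.34, 95% interval 0.31 to 1.83, adjusted p = 0.0740, limma) and missed the threshold.

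The rise of Dnmt3a from MA9-c-Kit- to MA9-c-Kit+ cells (0.96, SE 0.34) passed with an adjusted p of 0.0499 (limma) and was lost under 10 of the 19 alternatives. The call was gone without MA9-c-Kit- replicate 2 (0.86, adjusted p = 0.137) or 3 (0.82, 0.128), without MA9-c-Kit+ replicate 1 (0.73, 0.160) or 2 (0.83, 0.118), and without any 1 of the MA9-IL-34 libraries, which only enter the estimate of the spread (adjusted p 0.0551 to 0.0692). It was also lost with no filter on low values (adjusted p = 0.113), with only the 2 groups compared (0.0946) and with a constant prior variance (0.0577). With the replicate number as a block the adjusted p was 0.0119 over all 9 libraries and 0.0266 with only these 2 groups. An antisense gene, Dnmt3aos, shares 133 exon bases with Dnmt3a and was at 0.05 TPM at most.

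Dnmt3b, the other de novo enzyme (ENSMUSG00000027478, chromosome 2 from 153649450 to 153687730), had a different order. It was at 4.29, 3.40 and 5.34 TPM in MA9-c-Kit- replicates, at 11.7, 7.0 and 10.1 TPM in MA9-c-Kit+ and 6.87, 7.98 and 8.52 TPM in the MA9-IL-34 replicates. Both c-Kit+ groups lay above MA9-c-Kit- cells and overlapped each other. Compared with MA9-c-Kit- cells, the difference on the log2 scale was 0.98 for MA9-c-Kit+ (SE 0.22, adjusted p = 0.00725, limma) and 0.73 for MA9-IL-34 cells (SE 0.22, adjusted p = 0.0197). The latter call went without MA9-c-Kit- replicate 2 (0.60, adjusted p = 0.0682), MA9-IL-34 replicate 2 (0.71, 0.0582) or MA9-IL-34 replicate 3 (0.67, 0.0711). MA9-IL-34 against MA9-c-Kit+ cells gave -0.25 (SE 0.22, 95% interval -0.73 to 0.24, adjusted p = 0.537, limma).

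The makeup of the methyltransferase RNA was compared as shares of the summed TPM of Dnmt1, Dnmt3a and Dnmt3b, with an exact two-sided permutation test whose smallest p for 3 against 3 is 0.1. The test shuffled libraries freely between the groups compared and did not use the replicate numbers as pairs. The sum was 98.7 ± 5.80 TPM (SD, n = 3) in MA9-c-Kit-, 183 ± 14.7 TPM in MA9-c-Kit+ and 250.3 ± 23.2 TPM in MA9-IL-34 cells. Dnmt1 made a mean of 83.6%, 81.4% and 76.9% of it. The Dnmt3a share was 17.3%, 9.20% and 9.49% in MA9-c-Kit- replicates, 17.9%, 14.1% and 7.93% in MA9-c-Kit+ and 23.9%, 18.4% and 17.7% in MA9-IL-34 replicates. MA9-IL-34 libraries lay above the MA9-c-Kit- libraries and overlapped the MA9-c-Kit+ libraries. The difference of 7.98 percentage points from MA9-c-Kit- cells had the smallest p the test can give (exact p = 0.1, and 0.382 adjusted over the 21 such tests). The ratio of Dnmt3a to Dnmt3b TPM, added after the values were seen and not tested, was 1.71 to 3.83 in MA9-c-Kit-, 1.33 to 3.99 in MA9-c-Kit+ and 5.20 to 9.46 in MA9-IL-34 libraries.

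Among the erasers, Tet2 (ENSMUSG00000040943, chromosome 3 from 133463679 to 133545139) had the most RNA and fell where the methyltransferases rose. It was at 58.8, 63.0 and 60.8 TPM in MA9-c-Kit- replicates, at 44.6, 39.8 and 53.6 TPM in MA9-c-Kit+ and 35.4, 42.2 and 37.2 TPM in the MA9-IL-34 replicates. The MA9-c-Kit- libraries lay above all others, and the c-Kit+ groups overlapped. MA9-IL-34 cells were 1.58-fold below MA9-c-Kit- cells (log2 fold change -0.66, SE 0.13, adjusted p = 0.00255, limma), a call kept under all 19 alternatives. MA9-IL-34 against MA9-c-Kit+ cells gave -0.25 (SE 0.13, 95% interval -0.54 to 0.04, adjusted p = 0.254, limma).

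The fall of Tet2 from MA9-c-Kit- to MA9-c-Kit+ cells (-0.41 on the log2 scale, SE 0.13, adjusted p = 0.0330, limma) was lost under 9 of the 19 alternatives. With the replicate number as a block the adjusted p was 0.0515 over all 9 libraries and 0.0721 with only these 2 groups. With only these 2 groups and no block it was 0.0758. The call also went without MA9-c-Kit- replicate 1 (-0.43, adjusted p = 0.0621), 2 (-0.38, 0.0907) or 3 (-0.41, 0.0633), without MA9-c-Kit+ replicate 1 (-0.39, 0.0886) or 2 (-0.31, 0.0776), and without MA9-IL-34 replicate 3 (-0.41, 0.0555). An antisense gene, Gm42567, shares 43 exon bases with Tet2 and reached 0.66 TPM.

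Tet3 (ENSMUSG00000034832, chromosome 6 from 83362373 to 83459084) did not pass in any of the 3 comparisons. It was at 34.5, 28 and 24.3 TPM in MA9-c-Kit- replicates, at 24.4, 26.2 and 19.0 TPM in MA9-c-Kit+ and 24.6, 23.8 and 24.0 TPM in the MA9-IL-34 replicates. All groups overlapped. Its log2 fold changes were -0.31 for MA9-c-Kit+ (95% interval -0.67 to 0.06, adjusted p = 0.164, limma) and -0.24 for MA9-IL-34 (-0.60 to 0.13, adjusted p = 0.245), against MA9-c-Kit- cells, and 0.07 between the c-Kit+ groups (-0.30 to 0.43, adjusted p = 0.844).

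Tet1 (ENSMUSG00000047146, chromosome 10 from 62804570 to 62908996), the founding member of the family, was near the floor of the table. It was at 0.22, 0.29 and 0.05 TPM in MA9-c-Kit- replicates, at 1.13, 0.58 and 0.44 TPM in MA9-c-Kit+ and 0.21, 0.57 and 0.33 TPM in the MA9-IL-34 replicates. MA9-c-Kit+ libraries lay above MA9-c-Kit- libraries, and MA9-IL-34 libraries overlapped both. In a fit with no filter on low values (26784 genes) its log2 fold change was 0.52 for MA9-c-Kit+ against MA9-c-Kit- cells (SE 0.17, adjusted p = 0.0737, limma), and the other 2 adjusted p-values were 0.414 and 0.438. The depth of the libraries is unknown, so the precision of such low values cannot be given.

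Tet2 made a mean of 67.7%, 65.6% and 60.9% of the summed TET TPM, Tet3 made 32.0%, 33.4% and 38.5%, and Tet1 made 0.204%, 1.03% and 0.581%. Neither the Tet2 nor the Tet3 share separated any pair of groups (exact p from 0.2 to 0.9, permutation test). The summed TET level was 89.98 ± 4.32 TPM in MA9-c-Kit-, 69.9 ± 3.18 TPM in MA9-c-Kit+ and 62.8 ± 3.33 TPM in the MA9-IL-34 group (SD, n = 3). Set against the methyltransferases, the ratio of summed DNMT to summed TET TPM was 1.01, 1.15 and 1.13 in MA9-c-Kit- replicates, 2.57, 2.98 and 2.32 in MA9-c-Kit+ and 4.52, 3.40 and 4.10 in MA9-IL-34 replicates. The groups stood in that order with no overlap. This ratio was added after the values were seen and was not tested.

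**Figure D3:**
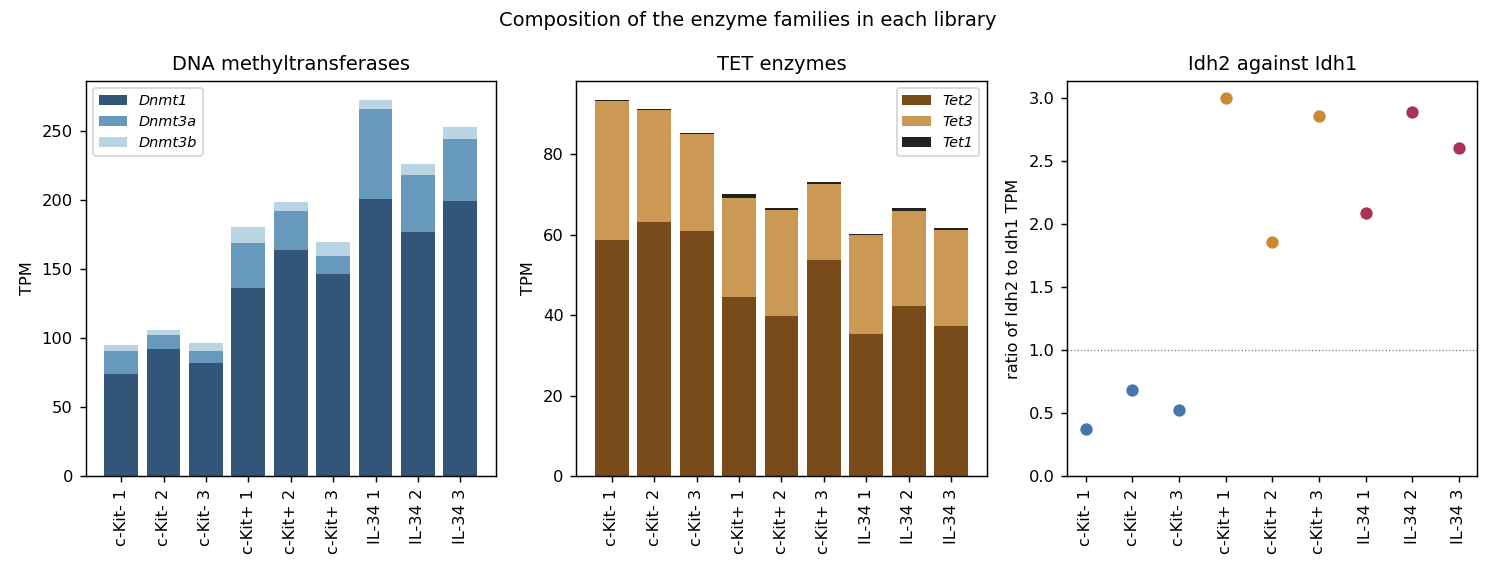
TPM of the DNA methyltransferases (left) and TET enzymes (middle) stacked by library, and the ratio of Idh2 to Idh1 TPM (right) with a dotted line at 1. The methyltransferase bars are highest in MA9-IL-34 libraries, the TET bars in MA9-c-Kit- libraries, and the Idh2 to Idh1 ratio is under 1 in the 3 MA9-c-Kit- libraries and above 1 in the other 6.

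Idh2, the mitochondrial isocitrate dehydrogenase (ENSMUSG00000030541, chromosome 7 from 80094846 to 80115392), was called higher in each of the 3 comparisons. It was at 45.2, 52.7 and 40.1 TPM in MA9-c-Kit- replicates, at 131, 169.7 and 112 TPM in MA9-c-Kit+ and 206, 189 and 211 TPM in the MA9-IL-34 replicates. The 3 groups did not overlap. MA9-c-Kit+ cells were 2.93-fold above MA9-c-Kit- cells (log2 fold change 1.55, SE 0.16, adjusted p = 0.000179, limma) and MA9-IL-34 cells 4.35-fold (2.12, SE 0.16, adjusted p = 1.18e-05).

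The difference of Idh2 between the c-Kit+ groups, higher with IL-34, was 1.49-fold (log2 fold change 0.57, SE 0.16, adjusted p = 0.0467, limma) and close to the threshold. It held without the third MA9-c-Kit- library (0.57, adjusted p = 0.0446) or the second MA9-c-Kit+ library (0.73, 0.00873) and was lost without any 1 of the others, with a log2 fold change of 0.57 without MA9-c-Kit- replicate 1 (adjusted p = 0.0628) or 2 (0.0504), 0.55 and 0.43 without MA9-c-Kit+ replicate 1 (0.128) or 3 (0.122), and 0.56, 0.62 and 0.54 without MA9-IL-34 replicate 1 (0.152), 2 (0.0992) or 3 (0.167).

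Idh1, the cytosolic enzyme (ENSMUSG00000025950, chromosome 1 from 65158616 to 65186500), moved otherwise. It was at 122, 76.8 and 76.8 TPM in MA9-c-Kit- replicates, at 43.7, 91.4 and 39.2 TPM in MA9-c-Kit+ and 98.5, 65.5 and 81.2 TPM in the MA9-IL-34 replicates. MA9-c-Kit+ replicate 2 was above its group's other libraries and reached into both other groups. None of the comparisons passed, with log2 fold changes of -0.72 for MA9-c-Kit+ against MA9-c-Kit- cells (SE 0.32, adjusted p = 0.106, limma), 0.57 for MA9-IL-34 against MA9-c-Kit+ (SE 0.32, adjusted p = 0.307) and -0.15 for MA9-IL-34 against MA9-c-Kit- (SE 0.32, adjusted p = 0.725). Without MA9-c-Kit+ replicate 2 the first was -1.09 (adjusted p = 0.00755) and the second 0.95 (adjusted p = 0.0290).

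The balance of the IDH genes separated MA9-c-Kit- cells from the others. The ratio of Idh2 to Idh1 TPM was 0.372, 0.687 and 0.522 in MA9-c-Kit- replicates, 3.01, 1.86 and 2.86 in MA9-c-Kit+ and 2.09, 2.89 and 2.60 in MA9-IL-34 replicates. Idh1 was the higher of the pair in each MA9-c-Kit- library and Idh2 in each of the others. The log2 ratio was higher than in MA9-c-Kit- cells by 2.30 in both of the other groups, each with the smallest p the exact permutation test allows (p = 0.1, 0.382 adjusted over 21 tests). For MA9-c-Kit+ cells this p ignores the pairing by replicate number that is described with the processing. Between the c-Kit+ groups the mean difference was -0.0060 (exact permutation p = 1).

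By mean TPM, the order in MA9-c-Kit- cells was Idh1 (91.7 ± 25.8), Dnmt1 (82.6 ± 9.18), Tet2 (60.8 ± 2.14), Uhrf1 (52.0 ± 16.2), Idh2 (46.0 ± 6.37), Tet3 (28.9 ± 5.15), Dnmt3a (11.7 ± 4.06), Dnmt3b (4.34 ± 0.971) and Tet1 (0.187 ± 0.123) (SD, n = 3). Idh1 and Dnmt1 overlapped, and Uhrf1 overlapped Tet2, Idh2 and Tet3, while Tet2 and Idh2 did not overlap. In MA9-IL-34 cells it was Idh2 (202 ± 11.7), Dnmt1 (192 ± 13.4), Uhrf1 (143 ± 13.8), Idh1 (81.7 ± 16.5), Dnmt3a (50.4 ± 12.7), Tet2 (38.3 ± 3.52), Tet3 (24.1 ± 0.427), Dnmt3b (7.79 ± 0.841) and Tet1 (0.37 ± 0.183). There Idh2 and Dnmt1 overlapped, and Dnmt3a reached down to the highest Tet2 library. MA9-c-Kit+ cells had Dnmt1 (149 ± 13.9), Idh2 (138 ± 29.3) and Uhrf1 (119 ± 5.52) on top, both others overlapping Idh2, followed by Idh1 (58.1 ± 28.9), Tet2 (46.0 ± 6.98), Dnmt3a (24.5 ± 9.83), Tet3 (23.2 ± 3.77), Dnmt3b (9.59 ± 2.38) and Tet1 (0.717 ± 0.365). There Idh1 overlapped Tet2, and Dnmt3a overlapped Tet3.

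The partners of the methyltransferases were counted from a list of 11 genes, of which 9 were tested. In MA9-c-Kit+ against MA9-c-Kit- cells 5 were called higher and none lower (median 0.54 on the log2 scale), and in MA9-IL-34 against MA9-c-Kit- cells 6 were called higher and none lower (median 0.69). Over all tested genes 19.3% and 19.0% were called higher and lower in the first comparison, and 26.6% and 23.4% in the second. Between the c-Kit+ groups these shares were 7.43% and 5.49%. Dnmt3l, a cofactor of Dnmt3a and Dnmt3b without catalytic activity of its own, rose in all 3 comparisons. It was at 1.97 to 4.27 TPM in MA9-c-Kit-, 8.36 to 10.1 TPM in MA9-c-Kit+ and 16.1 to 24.2 TPM in MA9-IL-34 libraries, with log2 fold changes of 1.39 (SE 0.23, adjusted p = 0.00207, limma) and 2.40 (SE 0.23, adjusted p = 5.56e-05) against MA9-c-Kit- cells and 1.00 (SE 0.23, adjusted p = 0.0226) between the c-Kit+ groups, where it was the 1 list gene called.

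Cdca7 and Hells, which together remodel nucleosomes so that DNA can be methylated, rose in both c-Kit+ groups against MA9-c-Kit- cells. Cdca7 was at 46.3 ± 5.95 TPM in MA9-c-Kit-, 132 ± 12.1 TPM in MA9-c-Kit+ and 112 ± 20.2 TPM in the MA9-IL-34 group (SD, n = 3), a log2 fold change of 1.5 (adjusted p = 0.000188, limma) and 1.24 (adjusted p = 0.00023). Hells was at 19.7 ± 5.42, 41.2 ± 5.88 and 34.8 ± 3.25 TPM. Lig1, the ligase of replicating DNA, reached 136 ± 9.13 TPM in MA9-IL-34 cells from 55.1 ± 16.7 TPM in MA9-c-Kit- cells (log2 fold change 1.34, adjusted p = 0.00101, limma). Uhrf2, the paralog of Uhrf1, chosen after its values were seen, was not called in any comparison and stood at 38.3, 38.7 and 34.4 TPM.

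Dnmt1 and Uhrf1 are also genes of replicating cells, so S phase genes are given beside them. Of 23 listed, all 23 were tested, 18 were called higher and none lower in MA9-c-Kit+ against MA9-c-Kit- cells (median log2 fold change 0.86), and 21 and none in MA9-IL-34 against MA9-c-Kit- cells (median 1.00). Of all tested genes 19.3% and 19.0% were called higher and lower in the first of these comparisons, and 26.6% and 23.4% in the second. Between the c-Kit+ groups none of the 23 was called (median 0.18), beside 7.43% higher and 5.49% lower over all tested genes. Mcm7, a subunit of the replicative helicase, was at 102 ± 29.4 TPM in MA9-c-Kit-, 206 ± 16.3 TPM in MA9-c-Kit+ and 258 ± 11.2 TPM in MA9-IL-34 cells. Cdc45, another part of that helicase, rose by 1.2 on the log2 scale in MA9-IL-34 against MA9-c-Kit- cells (SE 0.14, adjusted p = 0.000174, limma). The log2 fold changes of Dnmt1 (0.84 and 1.21) and Uhrf1 (1.23 and 1.49) against MA9-c-Kit- cells stood beside these list medians, and the part of the cell cycle in them was not tested.

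Of the readers of the mark, 8 of 9 listed were tested, and 2 were called higher and 3 lower in MA9-c-Kit+ against MA9-c-Kit- cells, and 2 and 2 in MA9-IL-34 against MA9-c-Kit- cells (medians -0.22 and 0.04 on the log2 scale). Over all tested genes the shares called higher and lower were 19.3% and 19.0% in the first of these comparisons and 26.6% and 23.4% in the second, close to the readers' shares in the second. Zbtb4, a zinc finger protein that binds methylated CpG, was lower in MA9-c-Kit+ cells than in either other group. It was at 5.65 to 8.52 TPM in MA9-c-Kit-, 1.56 to 2.43 TPM in MA9-c-Kit+ and 6.84 to 8.16 TPM in MA9-IL-34 libraries. Its log2 fold change was -1.32 for MA9-c-Kit+ against MA9-c-Kit- cells (SE 0.20, adjusted p = 0.00117, limma) and 1.44 for MA9-IL-34 against MA9-c-Kit+ cells (SE 0.20, adjusted p = 0.00152). Zbtb4 was the 1 reader called between the c-Kit+ groups, where 7.43% of all tested genes were called higher and 5.49% lower.

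Of the partners of the TET enzymes and base excision repair genes, 11 of 15 were tested. In MA9-c-Kit+ against MA9-c-Kit- cells 4 were called higher and 2 lower, and in MA9-IL-34 against MA9-c-Kit- cells 4 and 3 (medians 0.16 and 0.04 on the log2 scale). Of all tested genes 19.3% and 26.6% were called higher in these comparisons. The lower calls were close to the 19.0% and 23.4% of all tested genes. Between the c-Kit+ groups Gadd45b was called higher and Cxxc5 lower, beside 7.43% and 5.49% of all tested genes. Apex1, the endonuclease of abasic sites, was at 32.2 ± 11.6, 102 ± 7.86 and 110.4 ± 3.43 TPM. Tdg, the glycosylase that excises TET products and was also chosen after its values were seen, was not called in any comparison, at 48.2, 54.1 and 56.6 TPM.

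The 3 Gadd45 genes, stress response genes linked to demethylation, parted from each other. Gadd45b was at 6.18 to 10.2 TPM in MA9-c-Kit-, 13.8 to 24.4 TPM in MA9-c-Kit+ and 65.5 to 83.4 TPM in MA9-IL-34 libraries. Its rise between the c-Kit+ groups was 2.09 on the log2 scale (SE 0.24, adjusted p = 0.000561, limma). Gadd45g ran the other way, at 19.8 ± 7.05, 5.39 ± 2.74 and 1.88 ± 0.392 TPM, and Gadd45a was at 44.8 ± 13.1, 19.1 ± 7.0 and 23.1 ± 3.50 TPM. Cxxc5, a CXXC protein of the kind that binds unmethylated CpG, was at 1.37 to 3.71 TPM in MA9-c-Kit+ and 0.10 to 0.33 TPM in MA9-IL-34 libraries (log2 fold change -1.43, SE 0.27, adjusted p = 0.00776, limma).

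Supply of methyl groups was read from 15 genes, of which 13 were tested. In MA9-c-Kit+ against MA9-c-Kit- cells 9 were called higher and 1 lower, and in MA9-IL-34 against MA9-c-Kit- cells 7 and 2 (medians 0.59 and 0.51 on the log2 scale), with none between the c-Kit+ groups. Over all tested genes the shares called higher and lower were 19.3% and 19.0%, then 26.6% and 23.4%. Between the c-Kit+ groups they were 7.43% and 5.49%. Shmt1 and Shmt2, which feed serine carbon into the folate cycle, stood at 11.7 ± 2.04 and 77.1 ± 29.0 TPM in MA9-c-Kit-, 38.9 ± 4.31 and 193.9 ± 40.2 TPM in MA9-c-Kit+ and 38.3 ± 2.98 and 179.5 ± 1.60 TPM in MA9-IL-34 cells. Ahcy, which clears the methyltransferase inhibitor S-adenosylhomocysteine, was at 63.3 ± 20.8, 128 ± 14.0 and 146 ± 11.7 TPM. Mtr, methionine synthase, rose by 1.02 on the log2 scale in MA9-IL-34 against MA9-c-Kit- cells (SE 0.15, adjusted p = 0.000561, limma).

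Of 21 genes around 2-oxoglutarate, 20 were tested, and 4 were called higher and 3 lower in MA9-c-Kit+ against MA9-c-Kit- cells, and 6 and 3 in MA9-IL-34 against MA9-c-Kit- cells (medians 0.26 and 0.21 on the log2 scale). These counts were near those over all tested genes (19.3% higher and 19.0% lower in the first comparison, 26.6% and 23.4% in the second). None was called between the c-Kit+ groups, beside 7.43% higher and 5.49% lower over all tested genes. Idh3a, a subunit of the NAD-dependent isocitrate dehydrogenase, was at 30.6 ± 11.7 TPM in MA9-c-Kit- and 61.5 ± 6.26 TPM in MA9-c-Kit+ cells (log2 fold change 1.04, SE 0.22, adjusted p = 0.00643, limma). Glud1, which links glutamate to 2-oxoglutarate and was chosen after its values were seen, fell by 0.90 and 0.87 on the log2 scale in MA9-c-Kit+ and MA9-IL-34 against MA9-c-Kit- cells (adjusted p = 0.00035 and 0.000195, limma).

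Germline genes that DNA methylation keeps silent in body cells were also looked at. None of the 12 reached the filter and 5 were listed at 0 in every library. Of all 55536 genes, 13722 reached the filter and 26784 were above 0 in at least 1 library. The highest value of the 12 was 1.34 TPM, for Ddx4 in MA9-c-Kit- replicate 3. Values this near the floor were not tested between the groups, and they do not measure methylation.

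**Figure D4:**
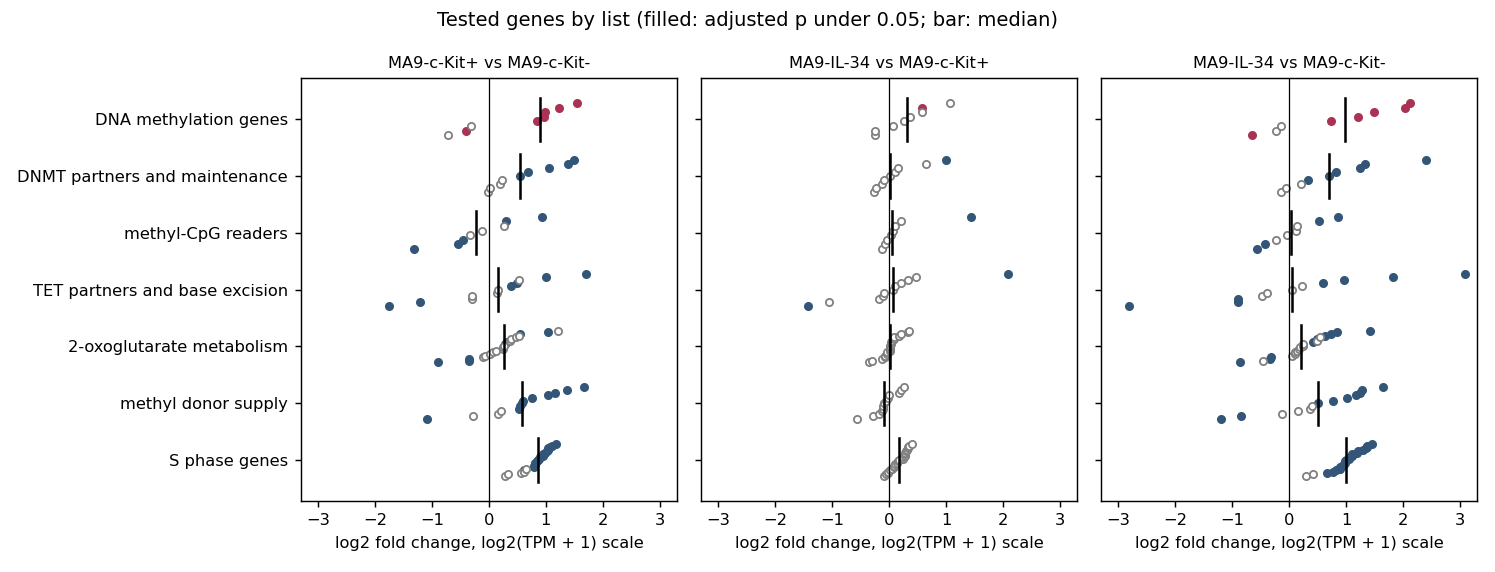
Log2 fold changes on the log2(TPM + 1) scale of the tested members of each gene list in the 3 comparisons, filled where the adjusted p was under 0.05, with a bar at the list's median. The S phase median is 0.86 and 1.00 against MA9-c-Kit- cells and 0.18 between the c-Kit+ groups, beside 0.90, 0.97 and 0.32 for the DNA methylation genes.

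Across the 9 libraries, which span the 3 groups and so carry the group differences, Dnmt1 and Idh2 had a Pearson r of 0.99 on the log2(TPM + 1) scale, Dnmt1 and Uhrf1 0.96, and Dnmt3a and Tet2 -0.95. Idh1 was at -0.17 with Idh2 and -0.20 with Dnmt1. The tested genes most like Dnmt1 were BC030867 (r = 0.997), Cdc37 (0.995) and Chaf1a (0.994). Cdc37 lies on the same chromosome, 173334 bases from Dnmt1. Chaf1a, a subunit of the chromatin assembly factor that works behind the replication fork, was also among the 3 most like Idh2 (0.995), after Abcd3 and Adgrg3 (both 0.998). Most like Uhrf1 were Cenph (0.996), Mcm7 (0.994) and Hirip3 (0.994). For Dnmt3a they were Slc35a1, Arv1 and Ngrn (0.982 to 0.990), for Dnmt3b Thg1l, Las1l and Abcf1 (0.977 to 0.984) and for Tet2 Fam83f, 0610039K10Rik and Ankrd50 (0.984 to 0.988). These values describe the libraries and carry no test.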

How the data were processed

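Total RNA libraries of sorted AML cells were made with a TruSeq v2 kit, per the labels. The authors deposited 1 table of TPM values computed on the Majorbio Cloud Platform, with 55536 genes and 9 library columns. The header names no unit. Each column summed to 977577 to 988051, so the values were read as TPM. The aligner, annotation and genome build are not given in the sources used here, and the study's methods call the assay a microarray. Counts were not used here and depth is unknown. One c-Kit column carries no sign, and as every other name was taken it was matched to MA9-c-Kit- replicate 3. No value column was left over (0). Positions come from GENCODE M21 (GRCm38), where 55450 identifiers were found and 86 were not, and promoter letters from RefSeq (GRCm38.p6).

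A gene entered the fit where 3 or more libraries reached 1 TPM, which 13722 did, and log2(TPM + 1) was fitted by limma 3.58.1 in R 4.3.3 (trended prior variance, 3 group means over 9 libraries, Benjamini-Hochberg adjustment per comparison). The thresholds (fold change of at least 2, adjusted p under 0.05) are those of the study's methods. The fit was tested on simulated data. Compositions were compared by exact two-sided permutation tests, which took no account of replicate numbers.

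The genes and lists were chosen with earlier results of these data known. Named were the 9 genes, for each list and comparison up to 4 of the differentially expressed genes, those of smallest p, the 3 genes most like each called member, and a few genes whose choice from known values is stated beside them. A gene that this rule would name is not reported here. Deviations from the group means correlated at 0.202, 0.239 and 0.443 for same-numbered libraries of the groups with the blank virus, so these numbers were taken to pair the libraries, and the blocked value is given where it changed a call. With MA9-IL-34 libraries no such correlation was above 0. Spearman correlations were 0.940 to 0.986 within and 0.817 to 0.942 between groups. Alternatives covered the filter, pseudocount, scaling, prior variance, groups fitted, the block and each library left out.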

Additional observations from a re-analysis of the deposited data

How the results depend on the processing

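Over the 24 log2 fold changes of the 8 tested genes and 19 alternatives, 416 values kept their direction and side of the threshold, 33 lost the call, 5 gained it and 2 reversed. Dnmt1, Uhrf1 and Idh2 kept their calls against MA9-c-Kit- cells under all 19, as did Dnmt3a and Tet2 for MA9-IL-34 and Dnmt3b for MA9-c-Kit+ against MA9-c-Kit- cells. The reversals were of values not called. With 1 library left out, Idh1 in MA9-IL-34 against MA9-c-Kit- cells ranged from -0.292 to 0.069 (the highest without MA9-c-Kit- replicate 1), and Tet3 between the c-Kit+ groups from -0.065 to 0.159 (the lowest without MA9-c-Kit+ replicate 3). The count of genes called between the c-Kit+ groups (1) was 0 with no filter on low values, with only the 2 groups compared or with a constant prior variance, 2 without mitochondrially encoded genes, and 0 to 3 with 1 library left out (3 without MA9-c-Kit+ replicate 2). The count of genes differentially expressed in MA9-c-Kit+ against MA9-c-Kit- cells (2) was 4 with a pseudocount of 0.1, and 2 to 4 with 1 library left out (4 without MA9-c-Kit+ replicate 2). The cause of these changes was not tested. With no filter, more genes entered both the estimate of the prior variance and the adjustment.

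With the replicate number as a block over all 9 libraries, 2 genes were called between the c-Kit+ groups and 1 of them, Dnmt3a, was differentially expressed (1.07, adjusted p = 0.0187, limma). With the block and only the 2 groups compared, 0 were called. The numbers of MA9-IL-34 libraries name samples only. Deviations correlated at -0.150, -0.279 and -0.0946 with same-numbered MA9-c-Kit+ libraries and at -0.000871, -0.0727 and -0.0800 with MA9-c-Kit- libraries. For MA9-c-Kit+ the block took the call of Tet2, and it changed no other call against MA9-c-Kit- cells.

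With 1 library left out, differences of composition from MA9-c-Kit- to MA9-c-Kit+ cells changed sign. They ranged from -4.88 to 0.708 percentage points for the Dnmt1 share, -1.01 to 3.97 for Dnmt3a, -6.04 to 0.772 for Tet2 and -1.68 to 5.0 for Tet3. The difference of the Dnmt3a share was also below 0 without MA9-c-Kit- replicate 2 (-0.111), and that of the Tet3 share without MA9-c-Kit- replicate 3 (-0.429). The log2 ratio of Idh2 to Idh1 between the c-Kit+ groups ranged from -0.23 to 0.12, with 0.12 without MA9-IL-34 replicate 1 or MA9-c-Kit+ replicate 1 and 0.09 without MA9-c-Kit+ replicate 3, while against MA9-c-Kit- cells it stayed between 2.07 and 2.52.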
